A study of Homo sapiens with 9 samples.

Results

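The 37 genes described here encode proteins of spermiogenesis and of the mature sperm, and were taken by symbol from the 63856 genes of the deposited tables. All 37 had a row on a primary chromosome. They were grouped by role into 4 genes of chromatin packaging, 11 of the acrosome and of sperm-egg fusion, 4 of the accessory structures of the tail, 4 of the axoneme, 4 of the CatSper channel, 3 sperm isoforms of glycolytic enzymes, 4 testis-specific kinases and 3 others. The question was whether these late genes appeared in TCam-2 cells after activation of ESX1, an X-linked homeobox gene expressed in the testis.

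TCam-2 is a human line derived from a testicular seminoma, a germ cell tumour that resembles early germ cells. RNA was sequenced from 3 cultures each of unmodified wild-type cells (WT), of cells given nonspecific gRNAs (NC) and of cells in which ESX1 was activated by CRISPRa, here called ESX1 cells. In the ESX1 cells, gRNA vectors carrying GFP were co-transfected with an inducible dCas9-VPR activator, followed by puromycin and doxycycline. For NC the study's methods name the vector with nonspecific gRNAs and do not separately name the activator, and WT received no vector. Only part of the transfected cells were GFP-positive, so each transfected library is a mixture. In such bulk RNA, fewer cells expressing a gene and less of its RNA per cell cannot be told apart.

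Spermiogenesis is the last phase of sperm formation, in which a round haploid spermatid becomes a sperm. Its chromatin is repackaged as histones give way to transition proteins and then to protamines, the acrosome forms over the nucleus, and a flagellum with outer dense fibres and a fibrous sheath is built. Most of the genes are switched on after meiosis in the testis, so a seminoma line is not a cell type in which they are normally active.

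Total counts per library ranged from 5212804 in ESX1 replicate 3 to 10644408 in WT replicate 3. ESX1 itself had 33, 28 and 30 counts in WT, 35, 27 and 34 in NC, and 562, 554 and 170 in ESX1 cells, so all 3 activated libraries lay above every control. Of 12 seminoma markers, 11 were tested and none was at 0 counts over the libraries. Their summed level per kilobase was 1200 to 1470 RPKM in WT, 943 to 1020 in NC and 559 to 688 in ESX1 cells (RPKM, CPM per kilobase of exon, where CPM are counts scaled by TMM to a common library size). After all libraries were thinned to the smallest total, 25703 to 26054 genes had counts in WT, 27615 to 28256 in NC and 27769 to 29510 in ESX1 cells, the highest number being in ESX1 replicate 3.

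Most of the 37 genes had no counts or few in every group. No read pair was counted on 10 of them in any of the 9 libraries, namely PRM1, PRM2, CRISP2, SPACA3, ZPBP2, ODF1, TEKT1, TSSK1B, TSSK2 and SPATA18. TSSK2 shares all of its exon bases with another gene and could not receive a count, and TSSK1B shares 80.91% of its bases. The zeros of TSSK2 and TSSK1B therefore do not show that they were silent. A further 17 had some counts but too few to be tested. The remaining 10 (ODF2, SPAG16, SPATA20, CATSPER2, DPY19L2, TSSK6, ACRV1, AKAP3, CATSPER3 and HSPA1L) passed edgeR's filter on low counts. The 37 genes together took between 0.004996% and 0.007597% of a library. A count of 0 allows up to 3 counts, which corresponds to 0.302 to 0.554 CPM depending on the library and covers counting error only.

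**Figure D1:**
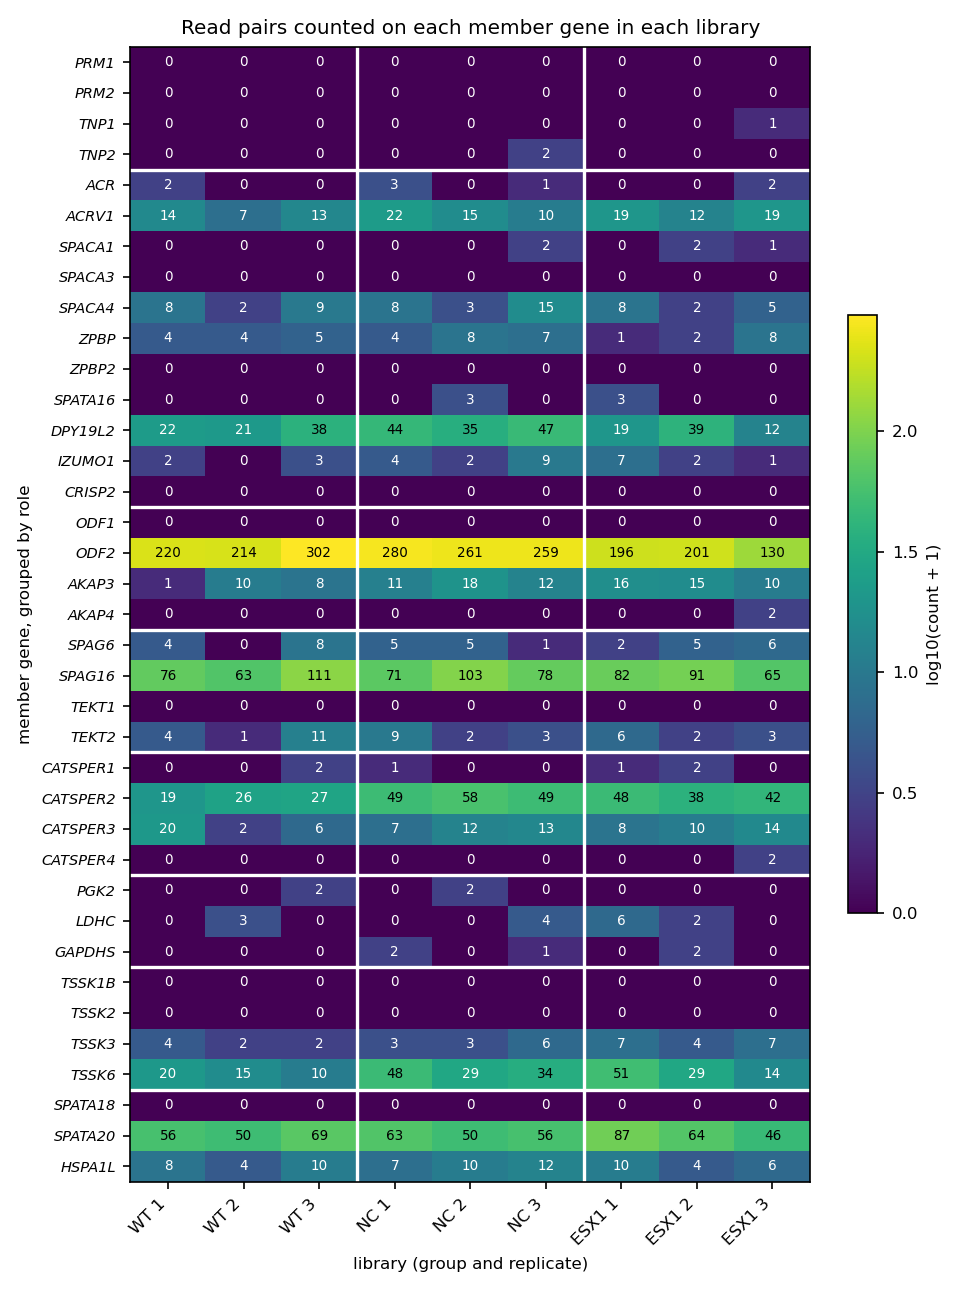
Read pairs counted on each of the 37 genes (rows, grouped by role between the white lines) in each of the 9 libraries (columns, WT, NC and ESX1, replicates 1 to 3). The colour is log10 of the count plus 1 and the number in each cell is the count. Rows of zeros run through all 3 groups for 10 genes, and ODF2 has the highest counts, from 130 to 302. Among the rows of zeros, TSSK2 could not receive a count because all of its exon bases are shared with another gene.

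The number of genes with any count in ESX1 cells lay above every WT library and overlapped that in NC. It was 17, 15 and 18 in the WT libraries, 19, 18 and 21 in NC, and 19, 20 and 21 in ESX1 cells. After thinning to the smallest total, 7, 4 and 7 of the 27 untested genes had counts in WT, 8, 7 and 9 in NC, and 7, 9 and 11 in ESX1 cells. Genes of all kinds with counts were likewise more numerous in both transfected groups than in WT after thinning. With detection defined as more than 3 counts in every library of a group, 9 genes were detected in WT, 11 in NC and 11 in ESX1 cells. The sets differed in part. TSSK3 was detected only in ESX1 cells (7, 4 and 7 counts, beside 2 to 4 in WT and 3 to 6 in NC), and ZPBP in both controls but not in ESX1 cells (1, 2 and 8 counts, beside 4 to 5 in WT and 4 to 8 in NC). Both lie near the limit of 3 counts and were not tested for a difference in the main fit. AKAP3 and CATSPER3 were detected in NC and ESX1 cells and not in WT. Counts seen in a single group were few. Only ESX1 replicate 3 had counts for TNP1 (1 count), AKAP4 (2 counts) and CATSPER4 (2 counts), and only NC replicate 3 had counts for TNP2 (2 counts). Counts of 1 or 2 in a single library do not decide whether these genes were expressed there. ESX1 replicate 3 is the shallowest library and the one with the most detected genes of all kinds after thinning, and the part of this in its single counts was not tested.

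The 27 untested genes were also summed in each library. Their counts were 28, 12 and 42 in WT, 39, 28 and 51 in NC, and 41, 25 and 38 in ESX1 cells. The ranges of the 3 groups overlapped. Scaled for depth, the sums were 3.06 ± 1.32 CPM in WT, 4.08 ± 1.10 in NC and 4.56 ± 2.28 in ESX1 cells (SD, n = 3 each). When the low-count filter was dropped, edgeR's quasi-likelihood test on 40330 genes gave 0 of the 17 genes with scarce counts at an unadjusted p below 0.05 in any of the 3 comparisons, the smallest p being 0.148 for ESX1 against WT, 0.188 for ESX1 against NC and 0.163 for NC against WT. Counts this scarce leave that test little room to pass its threshold. TNP1 had 1 count over all libraries, and TNP2, AKAP4 and CATSPER4 had 2 each. The 0 of 17 therefore does not decide whether these genes changed.

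A gene was called when edgeR's quasi-likelihood test gave a Benjamini-Hochberg adjusted p below 0.05 over the 18452 tested genes and the fold was at least 2. Of the 10 tested genes, 0 were called in ESX1 cells against WT, where 11.5% of all tested genes were called (6.78% higher and 4.77% lower). Against NC 0 of the 10 were called, beside 1.78% of all genes (1.08% higher and 0.699% lower), and in NC against WT 0 of the 10, beside 5.27% (3.12% higher and 2.15% lower). Past both controls in the same direction there were 0 of the 10, beside 1.53%. DESeq2 also gave 0 in each of these comparisons. It gave no adjusted p against NC for AKAP3, CATSPER3 and HSPA1L, so these genes could not be called there or against both controls. Without the fold condition 1 of the 10 (ODF2) had an adjusted p below 0.05 against WT, beside 28.8% of all genes, 0 against NC, beside 4.25%, and 0 in NC against WT, beside 17.1%. At an unadjusted p below 0.05, 3 of the 10 passed against WT (39.7% of all genes), 1 against NC (16% of all genes) and 2 in NC against WT (31.1% of all genes). A count of 0 among 10 genes is near each of these background shares of called genes.

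The median log2 fold change of the 10 genes was 0.29 against WT (0.01 over all tested genes), 0.06 against NC (4e-04 over all) and 0.28 in NC against WT (0.01 over all). The ESX1 comparisons share the ESX1 libraries, and both comparisons with WT share the WT libraries. The precision differed widely between genes. The 95% confidence interval lay within a 2-fold change either way for 4 genes against WT, 5 against NC and 3 in NC against WT, and the intervals of the others reached past a 2-fold change.

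**Figure D2:**
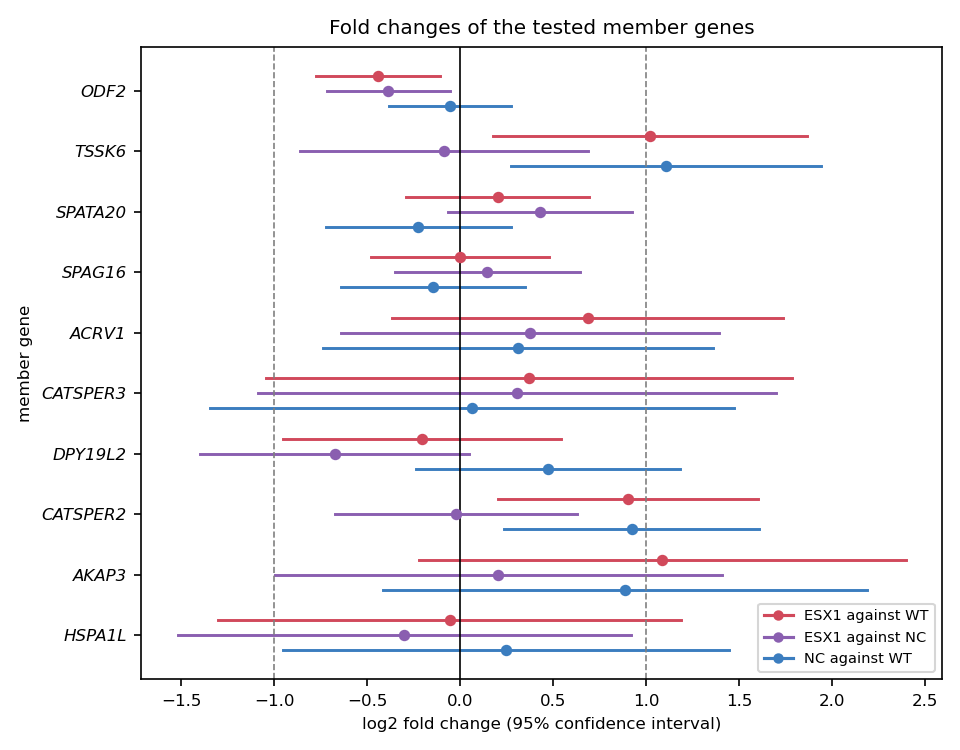
Log2 fold changes (points) with 95% confidence intervals (lines) of the 10 tested genes, from edgeR's fit over all 9 libraries, for ESX1 against WT, ESX1 against NC and NC against WT. The dashed lines mark a 2-fold change either way. ODF2 has the narrowest interval in each comparison, and the points of CATSPER2 and TSSK6 lie near a 2-fold difference in both comparisons with WT and near 0 for ESX1 against NC.

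The genes of chromatin packaging were at or next to 0 in all groups. PRM1 and PRM2 encode the protamines that compact sperm DNA, and both had 0 counts in all 9 libraries. TNP1 and TNP2, the transition proteins that precede them, had 1 and 2 counts over all libraries together. PRM1, PRM2 and TNP2 stand in a cluster on chromosome 16 that lies within the span of RMI2, a gene on the opposite strand with 1175 counts over the 9 libraries, and none of their exon bases is shared with another gene. The reference promoters of PRM2 and TNP2 show 2 genes of this cluster, with 0 and 2 counts, that differ in CpG pairs, the sites of DNA methylation. Each line holds the 100 bases before the RefSeq start (GRCh38.p14), written 5′ to 3′ on the minus strand, with CG pairs in capitals. The PRM2 stretch (chr16:11276481-11276580) has 4 CG pairs and the TNP2 stretch (chr16:11269326-11269425) has 0.
PRM2: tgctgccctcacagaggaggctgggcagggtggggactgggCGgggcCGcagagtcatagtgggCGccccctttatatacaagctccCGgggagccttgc
TNP2: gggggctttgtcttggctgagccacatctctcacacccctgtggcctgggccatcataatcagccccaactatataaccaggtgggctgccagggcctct

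Of the 11 genes of the acrosome and of fusion, 2 were tested. ACRV1, which encodes the acrosomal protein SP-10, had 1.53, 1.02 and 1.36 CPM in WT, 2.28, 1.61 and 1.02 in NC, and 1.93, 1.21 and 3.51 in ESX1 cells. The ranges overlapped, and the highest value was that of ESX1 replicate 3. Its log2 fold change was 0.68 ± 0.50 (SE) against WT with an adjusted p of 0.327, and 0.37 ± 0.48 against NC with an adjusted p of 0.782.

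DPY19L2 encodes an inner nuclear membrane protein that anchors the acrosome, and its loss causes round-headed sperm. It had 2.40, 3.06 and 3.97 CPM in WT, 4.56, 3.75 and 4.78 in NC, and 1.93, 3.92 and 2.22 in ESX1 cells. ESX1 replicate 2 lay inside the NC range and the other two below it. Against NC it was at a log2 fold change of -0.68 ± 0.34 (SE), with a 95% confidence interval from -1.40 to 0.05 and an adjusted p of 0.355. DPY19L2 has several pseudogenes, of which DPY19L2P1, DPY19L2P2 and DPY19L2P3 had counts. With their counts added, the value against NC was -0.36 ± 0.21, an alternative chosen after the data were seen.

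Among the untested genes of this group, SPACA4, a sperm membrane protein, had the most counts, with 8, 2 and 9 in WT, 8, 3 and 15 in NC, and 8, 2 and 5 in ESX1 cells. ZPBP, a zona pellucida binding protein, had 4, 4 and 5 counts in WT, 4, 8 and 7 in NC, and 1, 2 and 8 in ESX1 cells. IZUMO1, the sperm ligand required for fusion with the egg, had 2, 0 and 3 counts in WT, 4, 2 and 9 in NC, and 7, 2 and 1 in ESX1 cells. None of the 3 had all ESX1 libraries on one side of the controls. ACR, the protease acrosin, had 8 counts over all libraries, SPATA16 had 6 and SPACA1 had 5. SPACA3, ZPBP2 and CRISP2 had 0.

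The tail accessory structures held the most abundant gene of the 37. ODF2 encodes an outer dense fibre protein that is also a component of the centriolar appendages in other cells. Its level was 4.07 RPKM over the 9 libraries, beside 1.84 for TSSK6, 1.29 for SPATA20 and 1.14 for SPAG16. ODF2 had 24.0, 31.2 and 31.6 CPM in WT, 29.0, 28.0 and 26.4 in NC, and 19.9, 20.2 and 24.0 in ESX1 cells. All 3 ESX1 libraries were below every NC library, and the highest of them was at 24.01 CPM beside 24.02 in the lowest WT library.

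ODF2 was at a log2 fold change of -0.44 ± 0.16 (SE) against WT, with a 95% confidence interval from -0.78 to -0.11 and an adjusted p of 0.0448. In the main fit it was the only gene of the 10 with an adjusted p below 0.05 without the fold condition, and it did not reach a 2-fold change. Over the alternatives run, that adjusted p ranged from 0.0139 to 0.145 and was 0.0586 with DESeq2. With RLE scaling factors in place of TMM it was 0.0517 by edgeR. CATSPER2, which was higher against WT (0.92), then had 0.0464 by edgeR. Against NC the value was -0.39 ± 0.16 with an adjusted p of 0.220, and in NC against WT it was -0.06 ± 0.16 with an adjusted p of 0.837.

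AKAP3, an anchoring protein of the fibrous sheath, had 0.109, 1.46 and 0.836 CPM in WT, 1.14, 1.93 and 1.22 in NC, and 1.62, 1.51 and 1.85 in ESX1 cells. All 3 ESX1 libraries were above the WT range, the lowest of which rests on 1 count, and inside the NC range. Its log2 fold change was 1.09 ± 0.62 (SE) against WT with an adjusted p of 0.205, and 0.20 ± 0.57 against NC with an adjusted p of 0.917. AKAP4, the major protein of the fibrous sheath, had only the 2 counts of ESX1 replicate 3, and ODF1, the main outer dense fibre protein, had 0.

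**Figure D3:**
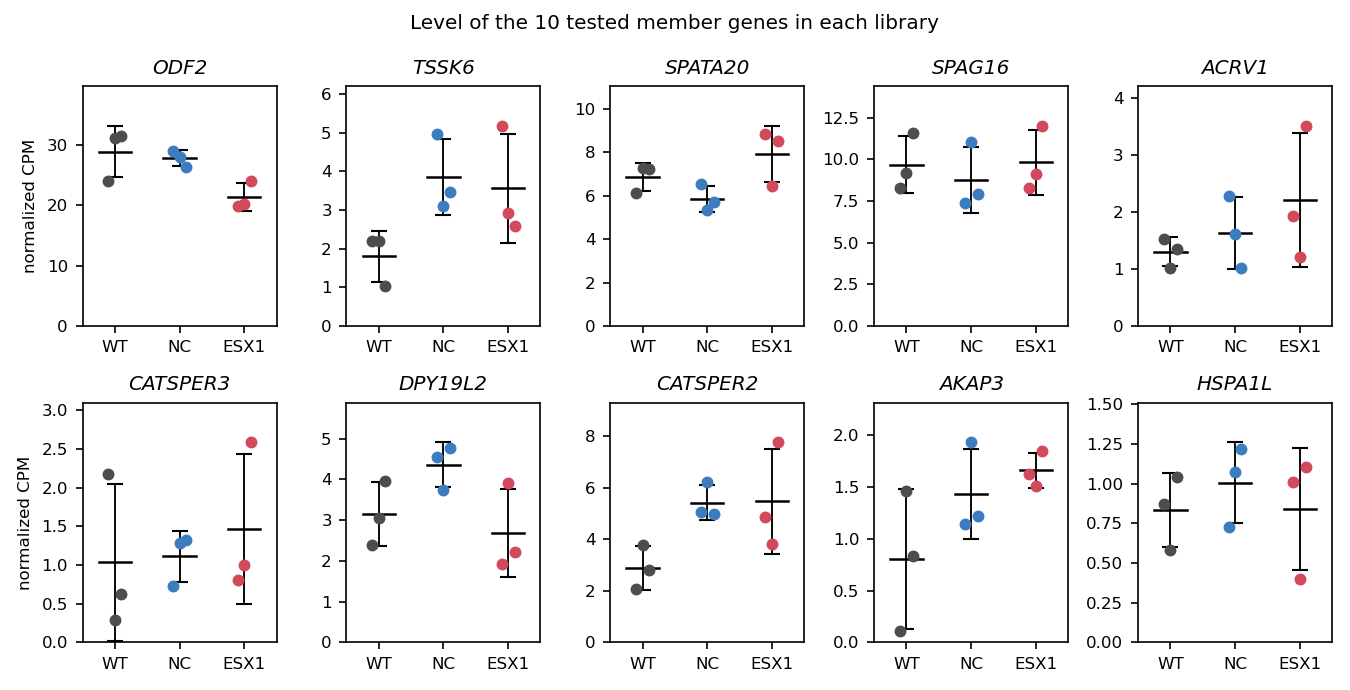
Normalized CPM of the 10 tested genes in each library (points), with the group mean (horizontal bar) and SD (whiskers, n = 3), for WT, NC and ESX1. Each panel has its own axis from 0. The ODF2 points of ESX1 lie at or below the lowest control, and the CATSPER2 and TSSK6 points of both NC and ESX1 lie above all WT points.

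In the axoneme, the microtubule core of the flagellum, only SPAG16 was tested. It encodes a protein of the central apparatus and had 8.30, 9.18 and 11.6 CPM in WT, 7.36, 11.0 and 7.94 in NC, and 8.31, 9.15 and 12.0 in ESX1 cells. The groups overlapped almost completely. The 95% confidence interval of the log2 fold change ran from -0.48 to 0.48 against WT, and that against NC ran from -0.35 to 0.64. SPAG6, its partner in the central apparatus, had 4, 0 and 8 counts in WT, 5, 5 and 1 in NC, and 2, 5 and 6 in ESX1 cells. TEKT2, a filament protein of flagellar microtubules, had 41 counts over all libraries and TEKT1 had 0.

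The CatSper channel is the calcium channel of the sperm tail, built from 4 pore-forming subunits. CATSPER2 had 2.07, 3.79 and 2.82 CPM in WT, 5.08, 6.22 and 4.99 in NC, and 4.87, 3.82 and 7.76 in ESX1 cells. Both transfected groups lay above the whole WT range and overlapped each other. The log2 fold change was 0.90 ± 0.33 (SE) against WT with an adjusted p of 0.0505, -0.02 ± 0.31 against NC with an adjusted p of 0.984, and 0.92 ± 0.33 in NC against WT with an adjusted p of 0.0606. With the counts of its pseudogene CATSPER2P1 added, the value against WT was 0.74 ± 0.31.

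CATSPER3 had 2.18, 0.292 and 0.627 CPM in WT, 0.726, 1.29 and 1.32 in NC, and 0.811, 1.01 and 2.59 in ESX1 cells, with WT spanning nearly the whole range of the other groups. Of its exon bases 36.75% are shared with PCBD2, and read pairs that fall there were counted for neither gene. Its log2 fold change was 0.37 ± 0.67 (SE) against WT and 0.31 ± 0.66 against NC. CATSPER1 had 6 counts over all libraries, in all 3 groups, and CATSPER4 had only the 2 counts of ESX1 replicate 3.

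The sperm isoforms of glycolysis are encoded by separate genes from those used in most cells. PGK2, LDHC and GAPDHS had 4, 15 and 5 counts over all libraries. LDHC, the sperm lactate dehydrogenase, had 0, 3 and 0 counts in WT, 0, 0 and 4 in NC, and 6, 2 and 0 in ESX1 cells, so each group held at least 1 library at 0. Per kilobase, PGK2 was at 0.0284 RPKM beside 74.3 for PGK1, LDHC at 0.0877 beside 42.9 for LDHA and 143 for LDHB, and GAPDHS at 0.0373 beside 574 for GAPDH. Of the exon bases of GAPDHS 60.83% are shared with TMEM147-AS1, so its counts can be too low.

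The testis-specific serine/threonine kinases act in late spermatids. TSSK6, required in mice for sperm chromatin condensation, had 2.18, 2.19 and 1.05 CPM in WT, 4.98, 3.11 and 3.46 in NC, and 5.17, 2.92 and 2.59 in ESX1 cells. As for CATSPER2, both transfected groups lay above every WT library and overlapped each other. The log2 fold change was 1.02 ± 0.40 (SE) against WT with an adjusted p of 0.0662, -0.09 ± 0.37 against NC with an adjusted p of 0.950, and 1.11 ± 0.40 in NC against WT with an adjusted p of 0.0633. NDUFA13, which starts next to TSSK6 on the opposite strand, was at -0.11 ± 0.34 against WT. Its value was -0.54 ± 0.33 against NC and 0.43 ± 0.32 in NC against WT.

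With the fold condition kept, CATSPER2 and TSSK6 were the only genes of the 37 called in some alternative, each of them in comparisons with WT. Without it, ODF2 was called against WT in the main fit, as given above. No alternative called a gene against NC. The TSSK6 call in NC against WT appeared with at least 10 counts in every library (1.15, adjusted p = 0.0374 by edgeR), with upper-quartile factors, with only the 6 libraries compared, with a replicate block and without ESX1 replicate 1. In ESX1 against WT TSSK6 was called with upper-quartile factors and with at least 10 counts. CATSPER2 was called in ESX1 against WT with upper-quartile factors, without WT replicate 2 and without ESX1 replicate 2 (1.11, adjusted p = 0.0240 by edgeR), and in NC against WT with upper-quartile factors. Upper-quartile factors moved the median log2 fold change of all genes by 0.102 against WT, and relative to that shift CATSPER2 remained at about its main value.

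TSSK3 had 4, 2 and 2 counts in WT, 3, 3 and 6 in NC, and 7, 4 and 7 in ESX1 cells, with 60.89% of its exon bases shared with FAM229A. The zeros of TSSK1B and TSSK2 rest on fewer usable bases than those of the protamines. All of the 1816 exon bases of TSSK2 lie in exons of DGCR14 on the opposite strand, and 80.91% of those of TSSK1B in exons of CTD-2201G3.1. Because read pairs on shared bases were assigned to neither gene, TSSK2 could not have received a count.

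The promoters of ODF2 and TSSK6 belong to the most abundant of the 37 genes per kilobase and are shown for comparison with PRM2 and TNP2. The lines again hold the 100 bases before the RefSeq start in GRCh38.p14, 5′ to 3′ on the strand of the gene, with CG pairs in capitals. ODF2 (plus strand, chr9:128455085-128455184) has 3 CG pairs and TSSK6 (minus strand, chr19:19515549-19515648) has 6.
ODF2: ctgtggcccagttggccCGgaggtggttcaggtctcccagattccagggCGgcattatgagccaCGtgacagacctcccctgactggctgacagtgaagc
TSSK6: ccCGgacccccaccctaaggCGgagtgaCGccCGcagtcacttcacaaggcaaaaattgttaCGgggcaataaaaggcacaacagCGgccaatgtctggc

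Among the other 3 genes, SPATA20, a thioredoxin-like protein, had 6.11, 7.29 and 7.21 CPM in WT, 6.53, 5.36 and 5.70 in NC, and 8.82, 6.44 and 8.50 in ESX1 cells. ESX1 replicate 2 lay inside the range of NC and the other two above every control. Against NC the gene was at a log2 fold change of 0.43 ± 0.23 (SE), with an adjusted p of 0.407, and at 0.20 ± 0.23 against WT, with an adjusted p of 0.559. Its pseudogene SPATA20P1 had between 1 and 16 counts in a library. SPATA18, a gene of mitochondrial quality control, had 0 counts.

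HSPA1L, the testis-enriched member of the HSP70 chaperone genes, had 0.873, 0.583 and 1.05 CPM in WT, 0.726, 1.07 and 1.22 in NC, and 1.01, 0.402 and 1.11 in ESX1 cells. Its log2 fold change was -0.06 ± 0.59 (SE) against WT and -0.30 ± 0.58 against NC. The stress-inducible neighbour HSPA1B, whose reads can be split with its near-identical copy HSPA1A, had 177, 119 and 160 counts in WT, 812, 758 and 772 in NC, and 1661, 903 and 952 in ESX1 cells. The log2 fold change of HSPA1B was 3.02 ± 0.20 (SE, adjusted p = 1.93e-08 by edgeR) against WT and 2.19 ± 0.20 (adjusted p = 3.59e-06 by edgeR) in NC against WT, so it rose in both comparisons with WT. Against NC it was 0.83 ± 0.18 (adjusted p = 0.0110 by edgeR), short of a 2-fold change.

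Of 31 genes with a RefSeq promoter entry (250 bases before the start to 50 after), 12 had an observed to expected CpG ratio of at least 0.6, which is 38.7%, beside 49.0% of 27305 promoters. The median ratio was 0.484, beside 0.58 over all promoters, 0.502 for the 9 tested genes with an entry and 0.421 for the 22 untested. The RefSeq start lay within 250 bases of the gene's start in the count table for 22 of the 31. A CpG-poor promoter was thus found both among genes with counts and among genes without.

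**Figure D4:**
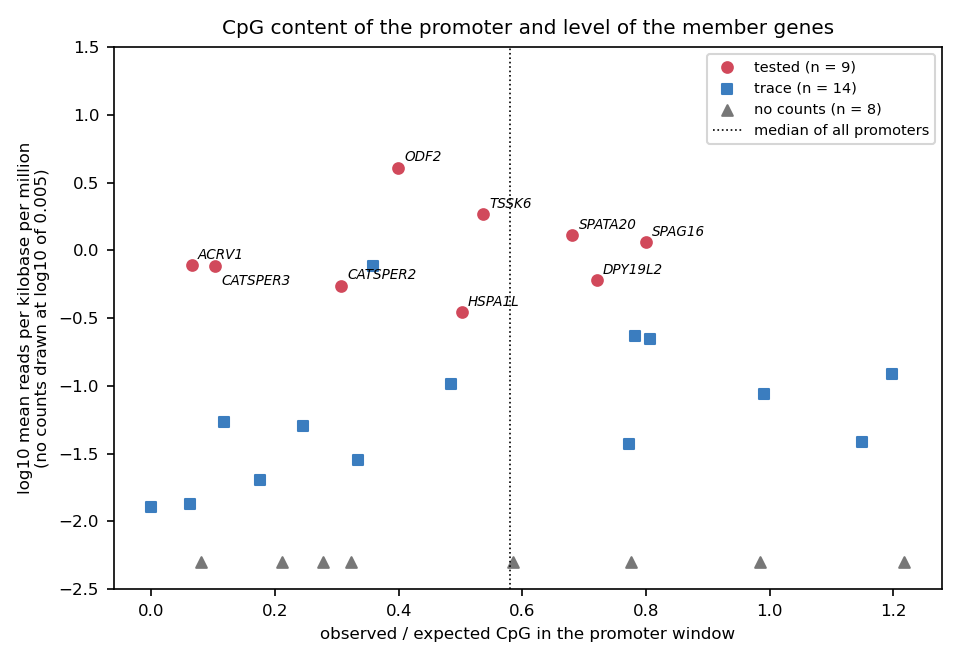
Observed to expected CpG ratio of the promoter window (x) against log10 of the mean RPKM over the 9 libraries (y) for the 31 genes with a promoter entry. Circles are tested genes, squares genes with scarce counts and triangles genes with no counts, drawn at log10 of 0.005. The dotted line is the median of all promoters, 0.58, and each class has points on both sides of it.

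The letters TGACGTCA, the full cAMP response element bound by the CREB and CREM factors, were searched on both strands, on which they read the same. They occurred in 1.98% of the 27305 promoters and in 2 of the 31, SPAG6 and GAPDHS. TAATTA, a core motif of homeodomain proteins that also reads the same on both strands, occurred in 4.98% of all promoters and in 0 of the 31. The SPAG6 and GAPDHS stretches are shown with the motif in capitals, both on the plus strand in GRCh38.p14, for SPAG6 at chr10:22345396-22345495 and for GAPDHS at chr19:35533356-35533455. The motif began 82 bases before the start in SPAG6 and 48 in GAPDHS.
SPAG6: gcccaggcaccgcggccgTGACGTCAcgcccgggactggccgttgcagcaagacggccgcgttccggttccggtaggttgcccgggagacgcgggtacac
GAPDHS: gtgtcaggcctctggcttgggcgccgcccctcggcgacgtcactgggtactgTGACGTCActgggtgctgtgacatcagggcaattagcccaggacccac

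A list of 54 other spermiogenesis genes was read for silent genes and for calls. Of these, 14 had no counts in any library, among them PRM3 and SMCP, and 13 were tested. The rest had too few counts to be tested and were not summed. Among them, ROPN1 had 3, 1 and 1 counts in WT, 1, 1 and 1 in NC, and 8, 7 and 2 in ESX1 cells. ROPN1B had 3, 1 and 3 in WT, 4, 3 and 6 in NC, and 13, 9 and 8 in ESX1 cells. Scaled for depth, every ESX1 library lay above every control for both. The share of all genes separated in this way was not counted. ROPN1L did not show it, with 2, 0 and 0 counts in WT, 5, 2 and 5 in NC, and 1, 3 and 1 in ESX1 cells. ROPN1 and ROPN1B were picked after their values were seen, and the directions of the others were not counted. Against NC 0 of the 13 were called, beside 1.78% of all genes. With the low-count filter dropped, 0 genes of the list were called against NC, beside 1.09% of all genes. Against WT 2 of the 13 were higher (6.78% of all genes) and 1 was lower (4.77% of all genes), and in NC against WT 2 were higher (3.12% of all genes). ODF3, an outer dense fibre gene, had 1, 3 and 3 counts in WT, 14, 15 and 17 in NC, and 18, 8 and 21 in ESX1 cells. Its log2 fold change was 2.83 ± 0.70 (SE) against WT and 2.47 ± 0.70 in NC against WT, both called, and 0.36 ± 0.55 against NC.

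SPAG4, a SUN-domain protein of the spermatid nuclear envelope, rose by 1.93 ± 0.42 (SE, adjusted p = 0.00214 by edgeR) on the log2 scale against WT. Its value was 0.80 ± 0.37 against NC, with an adjusted p of 0.303, and 1.13 ± 0.43 in NC against WT, with an adjusted p of 0.0778. SPATA6, which is needed for the sperm connecting piece, was lower against WT at a log2 fold change of -1.01 ± 0.15 (SE, adjusted p = 7.84e-05 by edgeR), and its value against NC was -0.36 ± 0.15 with an adjusted p of 0.230. TSSK4 rose in NC against WT by 1.31 ± 0.39 (SE, adjusted p = 0.0290 by edgeR) and was at -0.24 ± 0.37 in ESX1 against NC. CABYR, a calcium-binding fibrous sheath protein, was the most abundant of the list at 6.94 RPKM and was at -0.58 ± 0.16 against NC, with an adjusted p of 0.0538. SPESP1, an equatorial segment protein of the acrosome, was at 2.48 RPKM, and its log2 fold change against NC was 0.48 ± 0.32.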

How the data were processed

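Total RNA of 9 TCam-2 cultures (3 WT, 3 NC, 3 ESX1) was sequenced in read pairs after removal of ribosomal RNA. The authors aligned the reads to GRCh38 with HISAT2 2.0.5 and deposited raw counts per gene from featureCounts (version 1.5.2 in the file header, with GENCODE 26), made without strand, so that read pairs in exons of several genes were dropped. The authors also deposited normalized log2 values (DESeq2 per the labels, version not given in the sources used here), used only in an alternative. In that table a count of 0 stands at 4.18 in every sample.

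The counts were fitted with edgeR 4.0.16 in R 4.3.3 (filterByExpr, TMM, 3 group means over 9 samples, quasi-likelihood test, 18452 genes), with limma 3.58.1 and DESeq2 1.42.0 as alternatives. The fits were tested on simulated data, with changes placed only in genes with a mean of at least 10 counts. Genes with scarcer counts were therefore not covered by that test. RPKM used the exon lengths of the count table.

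All 37 genes are named. Of other lists (spermiogenesis, its regulators, motile cilia, seminoma, Sertoli, Leydig, spermatocyte and ciliated cell markers), those called against both controls and the 3 tested genes with the highest RPKM are named, and the others named were chosen after their values were seen. The genes and lists were chosen with earlier results of these data known. Replicate numbers in the titles were not used to pair samples, except in the replicate block among the alternatives.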

Additional observations from a re-analysis of the deposited data

How the results depend on the processing

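Of 576 fold changes of single genes recomputed under alternatives, 525 kept their sign and their side of the threshold, 40 changed sign without a call, and 11 passed the threshold with their sign kept (all CATSPER2 or TSSK6, in comparisons with WT). The sign changes fell in 12 values, none over 0.37 in size (log2) in the report's fit, among them SPAG16, HSPA1L, DPY19L2 and CATSPER3 against WT and ACRV1, CATSPER2, CATSPER3, HSPA1L and TSSK6 against NC. No member was called against NC or against both controls in any alternative. Against WT, 2 of 10 members were called with upper-quartile factors (11.8% of all genes), 1 of 6 with at least 10 counts in every library (8.84%) and 1 of 10 with no minimum fold (ODF2, 28.8%). In NC against WT, 2 of 10 were called with upper-quartile factors (5.53%), and 1 with at least 10 counts (of 6, 4.18%), with only the 6 samples compared (of 9, 5.48%) and with the replicate block (of 10, 5.44%). Leaving out each replicate gave 0 to 1 member against WT and 0 to 1 in NC against WT. Same-numbered samples correlated between -0.03 and 0.193, with 0.193, 0.091 and 0.016 for ESX1 against NC. Of 6 samples, 3, 4 and 1 in the 3 comparisons correlated best with their own number. With 3 replicates per group such values cannot settle whether same-numbered samples share a batch, which was not tested. The replicate block changed no call of a member other than TSSK6 (log2 fold change 1.12, adjusted p = 0.0376 by edgeR).

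All genes called numbered 1192 against WT, 200 against NC, 563 in NC against WT and 165 against both controls with at least 10 counts in every library, 5306, 784, 3158 and 686 with no minimum fold, and 937, 177, 338 and 138 with limma on the authors' values, against 2131, 328, 973 and 283 in the report's fit. Without single replicates the counts ranged from 209 to 434 against NC and from 185 to 359 against both controls, lowest without NC replicate 3. Of the other spermiogenesis genes, with at least 10 counts 1 was called against WT (8.84% of all genes) and 1 in NC against WT (4.18%). With only the 6 samples 1 was called against WT (10.8%), and with limma 0 and 0 (5.08% and 1.83%). Leaving out a replicate gave 2 to 6 against WT (6 without ESX1 replicate 2) and 0 to 2 in NC against WT (0 without WT replicate 3 and without NC replicate 2). Members detected in WT numbered 14 when 1 count in every library sufficed. The cause of these shifts was not tested. Depth limits the members at 0 counts, which allow up to 0.302 to 0.554 CPM in a library, and shared exon bases limit TSSK2, TSSK1B, TSSK3 and GAPDHS.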

Other observations

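Genes of motile cilia, which share the axoneme with the sperm tail, were measured as a further list. Of 21 genes 16 were tested, and 0 were called in ESX1 cells against NC (1.78% of all genes). Against WT 5 of the 16 were higher (DNAH5, HYDIN, DNAAF1, MCIDAS and CCNO), beside 6.78% of all genes, and 1 was lower (DNAH9), beside 4.77%. In NC against WT DNAH5 and HYDIN were higher, beside 3.12% of all genes. DNAH5, an outer dynein arm heavy chain, had 2, 2 and 1 counts in WT, 12, 4 and 27 in NC, and 18, 23 and 13 in ESX1 cells. Its log2 fold change was 3.37 ± 0.74 (SE) against WT and 0.54 ± 0.55 against NC. DNAH9, another heavy chain, had 39, 26 and 52 counts in WT, 23, 13 and 23 in NC, and 2, 11 and 0 in ESX1 cells. It was at -3.14 ± 0.58 against WT (SE, log2), and its value against NC was -2.01 ± 0.61 with an adjusted p of 0.0764 by edgeR. The most abundant genes of the list were CCNO at 1.94 RPKM, RSPH9 at 1.22 and ZMYND10 at 1.18.

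Of 17 regulators of spermiogenesis 11 were tested, and only YBX2, a germ cell RNA-binding protein, was called. It was lower against WT at -1.65 ± 0.57 (SE, log2), where 4.77% of all genes were called lower and 11.5% in either direction. YBX2 was at -0.87 ± 0.59 against NC (adjusted p = 0.524 by edgeR) and at -0.78 ± 0.51 in NC against WT (adjusted p = 0.317 by edgeR). The most abundant were JMJD1C at 20.1 RPKM, PYGO2 at 15.3 and KDM3A at 12.1, and DAZL had no counts. CREM, the activator of many spermatid genes, was at 12.7 ± 2.17 CPM in WT, 15.8 ± 1.79 in NC and 15.7 ± 1.84 in ESX1 cells (SD, n = 3).

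Of the 11 seminoma markers tested, 8 were lower in ESX1 cells against WT (4.77% of all genes), 1 against NC (NANOG, 0.699% of all genes) and 2 in NC against WT (2.15% of all genes). POU5F1 was at 311 RPKM, TFAP2C at 240 and SOX17 at 103 over all libraries. Markers of other cell types were low beside these. AMH at 3.96 RPKM, GATA4 at 3.46 and SYCP2 at 3.19 still lay above all of the 37 genes except ODF2 (4.07). Of 9 Sertoli markers 4 were tested (AMH, GATA4 and INHA the highest), and SOX9 was called, higher against NC, beside 1.08% of all genes. SOX9 was at 2.45 CPM in WT, 1.24 in NC and 4.45 in ESX1 cells. Its log2 fold change was 0.86 against WT, not called with an adjusted p of 0.0953 by edgeR, and -0.97 in NC against WT. The summed level of the Sertoli markers was 7.40 to 9.22 RPKM in WT, 7.79 to 9.72 in NC and 5.74 to 12.3 in ESX1 cells. Of 6 Leydig markers STAR and CYP11A1 were tested. CYP11A1 was called higher in ESX1 cells against WT (6.78% of all genes) and in NC against WT (3.12% of all genes). INSL3 and HSD3B2 had no counts, and the sums were 0.393 to 0.840, 0.864 to 1.54 and 0.666 to 1.77. Of 8 spermatocyte markers 4 were tested (SYCP2, SYCP3 and MEIOB the highest). MEIOB was called lower in ESX1 cells against WT (4.77% of all genes) and in NC against WT (2.15% of all genes). SPO11 had no counts, and the sums were 5.65 to 7.04, 3.67 to 4.48 and 2.61 to 4.75. Of 6 ciliated cell markers (CAPS, FOXJ1 and CCDC78 the highest) DNAH5 was called as above, and the sums were 1.79 to 3.1, 2.95 to 3.19 and 2.66 to 5.57. The part of these markers in the values of the 37 genes was not tested.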
